A study of Mus musculus with 18 samples.

Results

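The genes described here were 10 transcripts of the immediate-early response: the zinc-finger factors Egr1, Egr2 and Egr3, the immediate-early response genes Ier2, Ier3 and Ier5, and the Krüppel-like factors Klf2, Klf4, Klf6 and Klf10. They were chosen by symbol, with earlier results of these data known, among them the large 17-DMAG responses of Egr1 in 4T1 and of Klf2 in 4T1R1. Each symbol matched 1 row among the 24421 genes of the count table, and all 10 were among the 13507 genes that passed the filter on low counts and were tested. RNA was sequenced from 4T1, a mouse mammary carcinoma line of BALB/cfC3H origin labelled wild type, and from 4T1R1 and 4T1R2, populations selected from 4T1 with 17-DMAG, an inhibitor of the chaperone HSP90. Each of the 3 populations was sampled untreated and after 17-DMAG, in 3 libraries per group and 18 in all. The growth medium is recorded as DMEM with 10% fetal bovine serum, while the paper describes DMEM/F12 with less serum. The sample records give the treatment as 1.5 µM for 48 h, while the series description places RNA isolation 2 h after treatment, and the 2 records also differ in how the populations were selected. The resistant cells were populations and not single clones.

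Immediate-early genes are transcribed within minutes of a stimulus, without the need for new protein synthesis, and their mRNAs are short-lived. Growth factors and stress reach them largely through the ERK and p38 kinases and the ternary complex factors Elk1, Elk3 and Elk4, which act with serum response factor (SRF) on CArG boxes. Actin dynamics reach SRF through the MRTF cofactors, and ERK5 acts through MEF2 factors, a route best known for Klf2 and Klf4. Several kinases upstream of these factors, such as EGFR, are clients of HSP90. The products are mostly transcription factors or regulators that carry the stimulus to a later set of genes.

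Totals ran from 23354461 to 55094630 counts per library, with a median of 30747713.5, and the ribosomal transcript Rn45s took 9.54% to 15.6% of them. The highest total was that of treated 4T1 replicate 2. Among low nonzero counts, 65.6% to 70.8% were even numbers in each library. Whether fragments were counted more than once was not tested, so the totals may overstate depth. In treated 4T1, replicates 1 and 2 agreed more closely than any other pair of libraries in a group. The chi-square per gene between them was 1.10, against 2.04 to 2.22 for the other 17 pairs. Their average therefore counted as 1 sample, and that group has n = 2, while the other groups have n = 3. Whether the 2 are separate libraries was not tested. A normalized count is a count over the TMM-scaled size of its library, brought to the mean size of all libraries. The heat shock genes Hspa1b, Hsph1, Dnajb1 and Hspa8, targets of HSF1, were higher after 17-DMAG in each population, and for Hspa1b the log2 fold changes were 5.11 (4T1), 3.23 (4T1R1) and 2.29 (4T1R2). All 8 mammary epithelial markers examined were detected, with summed normalized counts of 78218 to 79247 in untreated 4T1, 52236 to 54714 in untreated 4T1R1 and 60294 to 61533 in untreated 4T1R2. The 9 markers of leukocytes, endothelium and mesenchymal cells summed to 30.6 to 87.7 in any library. The library names of 4T1R1 belong to another run of numbers than those of 4T1 and 4T1R2, so library handling and the 4T1R1 population cannot be told apart. In bulk RNA, fewer cells that express a gene and less of its RNA per cell cannot be told apart either.

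Promoter windows from RefSeq (GRCm38.p6, 250 bases before to 50 bases after a start site) were examined for 6 of the 10 genes. Promoters of Egr1, Egr3, Ier2 and Klf10 were not examined, so nothing is said of their motifs. The examined genes had 10 windows in all. Shown are those of Egr2, Klf2 and Klf4, which hold the letters of a regulatory site, and that of Ier5, the gene that differed in direction from the other 9 in 4T1. Each is written 5′ to 3′ in the direction of the gene. Capitals mark a CArG box in Egr2, and in Klf2 and Klf4 the EGR recognition site GCGGGGGCG, which stands on the opposite strand in Klf4.
Egr2, chr10:67537619-67537918, plus strand: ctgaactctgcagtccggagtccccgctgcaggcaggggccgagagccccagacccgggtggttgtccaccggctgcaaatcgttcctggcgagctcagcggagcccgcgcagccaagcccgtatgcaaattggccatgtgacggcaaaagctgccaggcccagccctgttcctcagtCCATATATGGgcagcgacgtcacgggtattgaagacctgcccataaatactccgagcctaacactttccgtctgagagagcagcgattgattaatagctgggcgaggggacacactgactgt
Klf2, chr8:72318812-72319111, plus strand: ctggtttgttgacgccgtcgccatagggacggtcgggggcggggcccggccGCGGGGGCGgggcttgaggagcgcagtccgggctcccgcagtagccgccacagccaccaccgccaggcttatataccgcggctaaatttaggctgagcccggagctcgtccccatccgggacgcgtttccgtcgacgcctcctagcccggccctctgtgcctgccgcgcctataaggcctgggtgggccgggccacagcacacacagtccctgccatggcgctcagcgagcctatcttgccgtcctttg
Klf4, chr4:55532426-55532725, minus strand: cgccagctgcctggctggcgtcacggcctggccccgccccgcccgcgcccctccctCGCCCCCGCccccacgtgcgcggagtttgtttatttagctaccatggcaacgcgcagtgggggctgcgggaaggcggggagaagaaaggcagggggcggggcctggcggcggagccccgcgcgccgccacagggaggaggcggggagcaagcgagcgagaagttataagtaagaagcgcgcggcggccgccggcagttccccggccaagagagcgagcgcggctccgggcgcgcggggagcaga
Ier5, chr1:155099587-155099886, minus strand: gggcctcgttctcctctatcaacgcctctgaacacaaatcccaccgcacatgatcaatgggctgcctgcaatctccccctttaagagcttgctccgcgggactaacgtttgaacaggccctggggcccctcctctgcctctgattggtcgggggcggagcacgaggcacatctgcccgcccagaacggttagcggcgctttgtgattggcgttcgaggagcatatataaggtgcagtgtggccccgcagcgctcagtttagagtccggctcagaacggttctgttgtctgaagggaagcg

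The motifs searched on both strands were the CArG box, the cyclic AMP response element TGACGTCA and its shorter form TGACG, the EGR sites GCGGGGGCG and GCGTGGGCG, the GC box GGGCGG, and the paired heat shock units TTCNNGAA and GAANNTTC. A CArG box stood in 1.63% of 32817 promoter windows of this length, and the site GCGGGGGCG in 2.91%. In Egr2 the CArG box began 72 bases before the start site, between TGACG on the plus strand at 111 bases and on the minus strand at 55 bases before it. Of the other 4 windows of Egr2, 2 that overlap the one shown hold the same CArG box. The window at chr10:67537316-67537615 holds another, CCTTTTTTGG, 72 bases before its start site and the heat shock pair TTCCGGAA 131 bases before it, a pattern present in 8.51% of all windows, and the window at chr10:67535249-67535548 holds neither. The EGR site began 199 bases before the start site in Klf2 and 194 bases before it in Klf4, and in each gene a GC box overlapped it. TGACG also stood 241 bases before the start site in Klf2 and, on the minus strand, 232 bases before it in Klf4, against 20.8% of all windows. The window of Ier5 held 2 GC boxes and those of Klf6 and Ier3 held 1 each, with no match to the other motifs; a GC box was present in 35.6% of all windows. A match in these windows is a description of letters, with no measurement of binding.

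Per kilobase of annotated exon, Ier3 was the most abundant of the 10 transcripts in untreated 4T1, at 3599 normalized counts per kilobase. Klf6 stood at 1591, Ier2 at 1259.8, Ier5 at 568 and Klf10 at 329.7 on this scale. Klf2, Egr1 and Klf4 followed at 167, 137 and 120.3, and Egr3 at 45.2 and Egr2 at 20.1 were the least abundant. No annotated gene of GENCODE vM21 on the GRCm38 genome overlaps any of the 10. Egr1 spans 34859823 to 34864984 of chromosome 18, plus strand. Ier3 spans 35821684 to 35822923 of chromosome 17, plus strand, and Klf10 spans 38291463 to 38300706 of chromosome 15, minus strand.

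Egr1, a growth factor-induced zinc-finger activator, was the EGR transcript with the widest separation between treated 4T1 and the other groups. Its normalized counts were 622, 511 and 715 in untreated 4T1 and 80.9 and 88.6 after 17-DMAG. In 4T1R1 they were 348, 462 and 432 untreated and 423, 358 and 399 treated, and in 4T1R2 they were 305, 304 and 341 untreated and 315, 309.9 and 315 treated. The 2 treated 4T1 values were therefore the lowest of all, and treated and untreated libraries overlapped in each resistant population. The order of group means ran from untreated 4T1 (616 ± 102, SD, n = 3) through 4T1R1 and 4T1R2 to treated 4T1 (84.7 ± 5.44, SD, n = 2). Treated 4T1 kept 13.8% of its untreated Egr1 mean, against 95.0% in 4T1R1 and 98.9% in 4T1R2.

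Egr2, a factor best known from myelination and lymphocytes, followed another order. Libraries of untreated 4T1 held 62.1, 79.1 and 63.4 normalized counts, and treated ones 17.7 and 17.3. For 4T1R1 the values were 166, 102 and 148 untreated and 81.5, 80.4 and 73.0 treated, and in 4T1R2 they were 88.2, 73.0 and 64.3 untreated and 62.1, 55.4 and 58.0 treated. Untreated 4T1R1 was highest, and its spread (138 ± 32.7, SD, n = 3) was the widest of the 6 groups for this gene. Untreated 4T1, untreated 4T1R2 and treated 4T1R1 stood next to each other in the order with overlapping libraries.

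Egr3, whose product is closely related to that of Egr1, was highest in untreated 4T1. Its normalized counts were 201, 190.2 and 206 in untreated 4T1 and 55.5 and 49.7 after 17-DMAG. In 4T1R1 they were 135, 122 and 128 untreated and 92.03, 85.7 and 86.3 treated, and in 4T1R2 they were 153, 146 and 147 untreated and 138, 113 and 124 treated. Treated libraries lay below untreated libraries in all 3 populations, and treated 4T1 kept 26.4% of its untreated mean, against 68.5% in 4T1R1 and 83.7% in 4T1R2.

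Ier3 encodes a stress-inducible regulator of survival and of ERK signalling, and it combined a higher untreated level in the resistant populations with a smaller response. Untreated 4T1 had 3892, 4109.8 and 4208 normalized counts, and treated 4T1 had 1359.5 and 1482. The 4T1R1 libraries had 7013, 7200.1 and 7447 untreated and 4081, 3845 and 3743 treated, and those of 4T1R2 had 8938, 8911 and 9879 untreated and 7624, 7267 and 8319 treated. Treated 4T1R1 thus overlapped untreated 4T1, and treated 4T1R2 overlapped untreated 4T1R1. The mean of treated 4T1R2 was 5.45 times that of treated 4T1.

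Ier2, a nuclear immediate-early protein of largely undescribed mechanism, differed little among untreated cells. Its normalized counts were 1816, 1905 and 2031 in untreated 4T1, 1964, 2056 and 2039 in untreated 4T1R1, and 2052, 2076 and 2207 in untreated 4T1R2. After 17-DMAG they were 801 and 814 in 4T1, 1278, 1492 and 1445 in 4T1R1, and 1783, 1743 and 1765 in 4T1R2. The untreated groups overlapped their neighbours in the order, whereas the 3 treated groups lay apart from each other and below every untreated library.

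Ier5, a heat shock factor-linked member that binds HSF1 and the phosphatase PP2A, ran opposite to the others in 4T1. Normalized counts were 1827, 1894 and 1866 in untreated 4T1 and 2386 and 2679 after 17-DMAG. Values in 4T1R1 were 2759, 2879 and 2973 untreated and 2944, 2939 and 2962 treated, and in 4T1R2 they were 2465, 2525 and 2622 untreated and 2639, 2572 and 2731 treated. Untreated 4T1 lay below all other libraries, treated 4T1 overlapped untreated 4T1R2, and treated and untreated libraries overlapped in each resistant population.

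Klf2 is a factor induced by shear stress through ERK5 and known for quiescence in endothelium and T cells. Alone among the KLF members, it had its highest group mean in untreated 4T1. Its normalized counts were 293, 296 and 337 in untreated 4T1 and 57.9 and 82.1 after 17-DMAG. In 4T1R1 they were 179, 163 and 143 untreated and 64.2, 69.8 and 65.3 treated, and in 4T1R2 they were 104, 133 and 109 untreated and 72.3, 77.9 and 98.9 treated. The 3 untreated groups lay apart, whereas treated 4T1, with a mean of 70.0 ± 17.1 (SD, n = 2), overlapped both treated 4T1R1 (66.4 ± 2.97, SD, n = 3) and treated 4T1R2 (83.0 ± 14.0, SD, n = 3).

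Klf10, induced by TGF-β and a repressor of growth-related genes, separated 4T1 from both resistant populations. It stood at 1371, 1344 and 1418 normalized counts in untreated 4T1 and at 869 and 739.9 after 17-DMAG. The values in 4T1R1 were 2888, 2729 and 2876 untreated and 2769, 2668 and 2999 treated, and in 4T1R2 they were 2724, 2469 and 2725 untreated and 2620.4, 2579 and 2602 treated. All libraries of the resistant populations lay above those of 4T1, and neighbouring groups among them overlapped.

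Klf4, a factor of epithelial differentiation and pluripotency, was also lowest in 4T1. The untreated 4T1 libraries had 369, 319.5 and 413 normalized counts and the treated ones 316 and 249.5, so that the groups were separated by a narrow gap. Those of 4T1R1 had 726, 789 and 785 untreated and 636, 641 and 603 treated, and those of 4T1R2 had 589, 687 and 639.7 untreated and 459, 511 and 503 treated. Klf6, a ubiquitous immediate-early KLF, had the smallest ratio of highest to lowest group mean among the KLF genes, at 1.90. It ran from 6651 to 7299.5 in untreated 4T1 and from 4418 to 4527 after 17-DMAG, from 7868 to 8216 and from 7208 to 7478 in 4T1R1, and from 8246 to 8676 and from 7495 to 7648 in 4T1R2. Treated 4T1R1 overlapped untreated 4T1 for Klf6, and for Klf4 all resistant libraries lay above all 4T1 libraries.

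**Figure D1:**
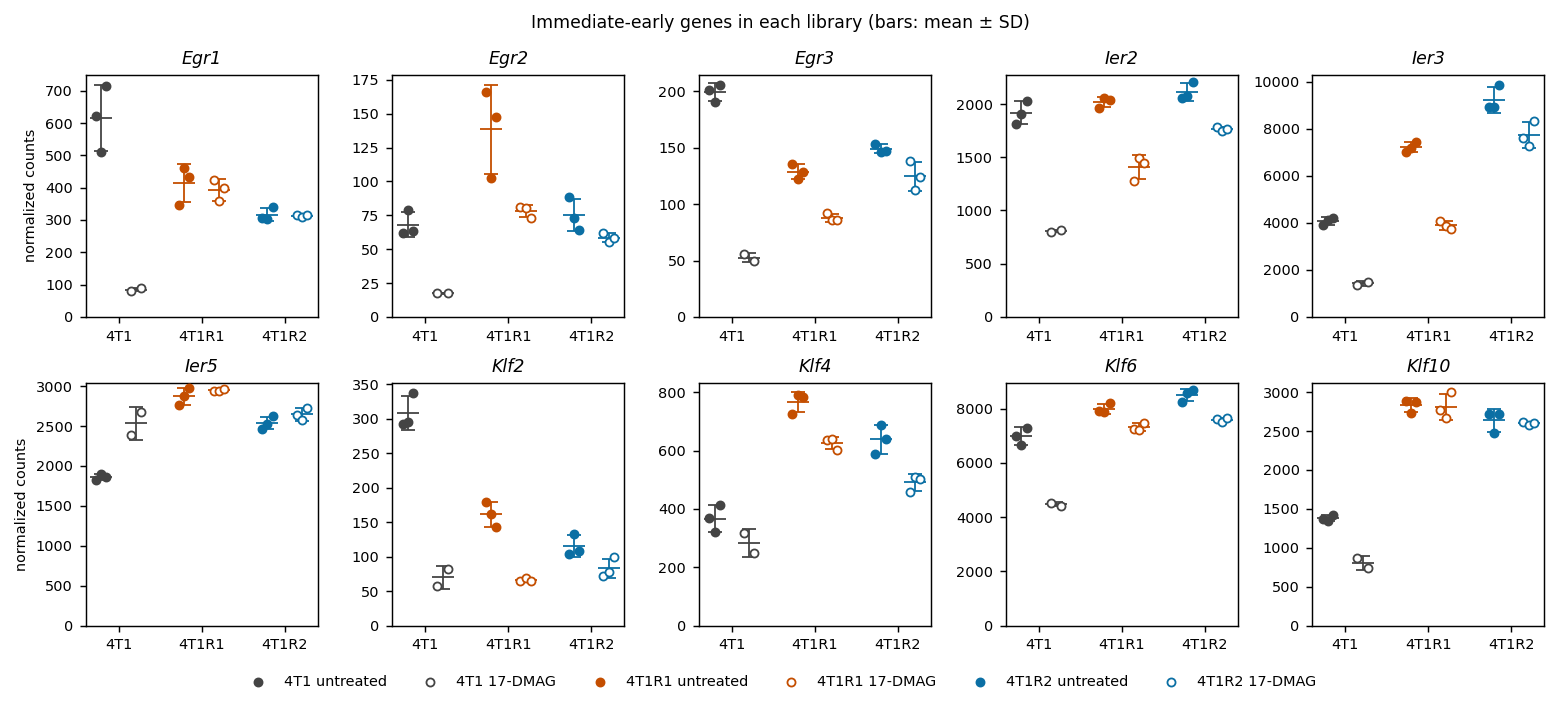
Normalized counts of the 10 genes in each library (points; filled untreated, open 17-DMAG) by population, with group means ± SD (bars) and a separate linear axis from 0 for each gene. Egr1 in treated 4T1 sits at 80.9 and 88.6 while all libraries of the resistant populations lie between 304 and 462.

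The 17-DMAG response within each population was compared first. In 4T1, 9 of the 10 genes were lower and 1 was higher at an adjusted p under 0.05 (edgeR's quasi-likelihood test), where 17.9% of all genes tested were lower and 18.4% higher. Because this contrast and that in 4T1R1 were known when the genes were chosen, their values are a description and nothing is read from those shares. The log2 fold changes were −2.87 (SE 0.14) for Egr1, −2.16 (SE 0.17) for Klf2, −1.95 (SE 0.29) for Egr2 and −1.91 (SE 0.17) for Egr3. Egr1 was thus 7.31-fold lower and Klf2 4.48-fold lower in the fitted model. Ier3 (−1.52, SE 0.055) and Ier2 (−1.25, SE 0.061) came next, ahead of Klf10 (−0.77, SE 0.062), Klf6 (−0.64, SE 0.037) and Klf4 (−0.37, SE 0.11). Ier5 was 1.36-fold higher (0.44, SE 0.048). The median log2 fold change of the 10 genes was −1.39, and that of all genes tested was 0.00064. The value of Klf4 was −0.27 without untreated replicate 3 and −0.22 without treated replicate 3, and passed the threshold in neither, while it was −0.56 without the averaged treated library.

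In 4T1R1, 7 genes were lower and 0 higher, where 14.3% of all genes were lower and 13.9% higher. Klf2 had the most negative value, with a log2 fold change of −1.28 (SE 0.16), and Ier3 (−0.89, SE 0.043) and Egr2 (−0.82, SE 0.18) followed. Egr3 (−0.54, SE 0.15) and Ier2 (−0.53, SE 0.051) lay near each other, and Klf4 (−0.29, SE 0.081) and Klf6 (−0.13, SE 0.032) had the smallest values called. Egr1 (−0.071, SE 0.10), Ier5 (0.038, SE 0.041) and Klf10 (−0.011, SE 0.047) did not pass the threshold. The median was −0.41 for the 10 genes and −0.0086 for all genes.

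In 4T1R2, 4 genes fell and 0 rose, where 4.35% of all genes fell and 6.18% rose. Klf4 fell by 0.37 on the log2 scale (SE 0.084, adjusted p = 0.00196) and Klf6 fell by 0.16 (SE 0.032, adjusted p = 0.000331). Ier2 fell by 0.26 (SE 0.0497, adjusted p = 0.000279) and Ier3 fell by 0.26 (SE 0.041, adjusted p = 2.27e-05), each in all 3 treated libraries relative to all 3 untreated ones. The log2 fold change of Klf2 was −0.46 (SE 0.16, adjusted p = 0.0631), and without treated replicate 3 it was −0.60 with an adjusted p of 0.0250. Egr2 (−0.37, SE 0.20, adjusted p = 0.278) and Egr3 (−0.26, SE 0.14, adjusted p = 0.256) did not pass. Their treated libraries lay below the untreated ones, a separation whose share over all genes was not counted. Egr1 (−0.016, SE 0.11, adjusted p = 0.955), Klf10 (−0.023, SE 0.047, adjusted p = 0.829) and Ier5 (0.062, SE 0.042, adjusted p = 0.406) did not pass either, and the 95% interval for Egr1 ran from −0.23 to 0.20. The median was −0.26 for the 10 genes and −0.0019 for all genes.

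**Figure D2:**
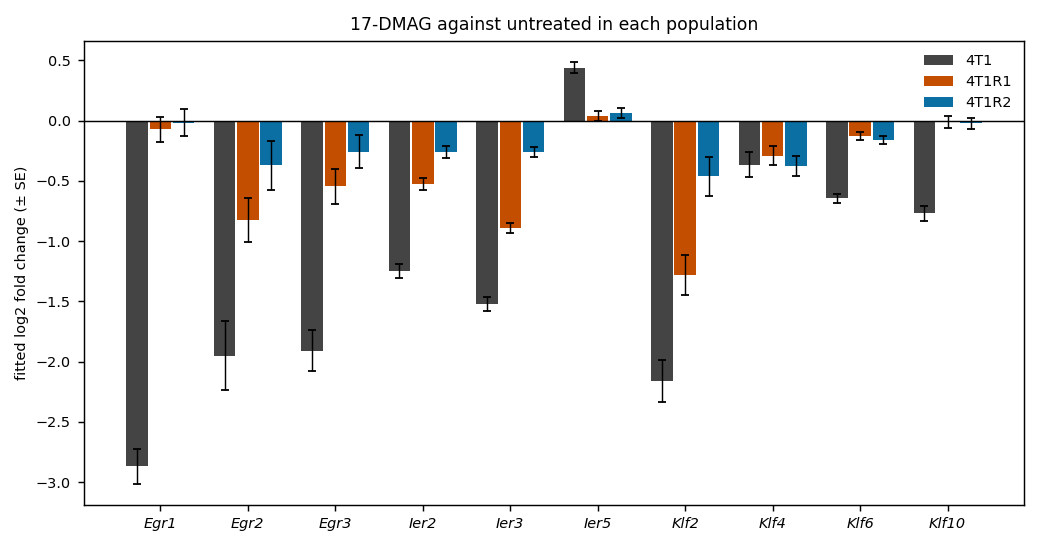
Fitted log2 fold change of each gene after 17-DMAG in 4T1 (n = 2 treated, 3 untreated), 4T1R1 and 4T1R2 (n = 3 each); error bars are 1 SE. Egr1 reaches −2.87 in 4T1 and stays within 0.071 of 0 in the resistant populations, while Klf4 has a like value in all 3 (−0.37, −0.29 and −0.37).

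The difference between these responses was fitted directly. The comparisons below share the response in 4T1 as their reference, and that response was known when the genes were chosen, so these values too are a description. For 4T1R1 minus 4T1, 8 genes were higher, a less negative response in 4T1R1, and 1 was lower, where 9.16% of all genes were higher and 9.08% lower. For 4T1R2 minus 4T1 the counts were again 8 and 1, where 9.62% of all genes were higher and 8.16% lower. Egr1 differed most, by a log2 value of 2.80 (SE 0.18) in 4T1R1 and 2.85 (SE 0.18) in 4T1R2. Egr3 differed by 1.36 (SE 0.23) and 1.65 (SE 0.22), Klf2 by 0.88 (SE 0.24) and 1.70 (SE 0.24), and Egr2 by 1.13 (SE 0.35) and 1.58 (SE 0.36). Ier5, the gene higher in treated 4T1, differed by −0.40 (SE 0.063) and −0.38 (SE 0.064). Klf4 was not called in either, at 0.075 (SE 0.13; 95% interval −0.19 to 0.34) and −0.0093 (SE 0.14; 95% interval −0.28 to 0.26). In 4T1R1 minus 4T1, Egr2 lost its call at 1.14 without the averaged treated 4T1 library, at 1.12 without treated 4T1 replicate 3 and at 0.95 without untreated 4T1R1 replicate 2. Klf2 lost its call there at 0.63 without the averaged library.

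The responses of the 2 resistant populations were also compared with each other. The response in 4T1R1 was known when the genes were chosen and forms one side of this contrast, so its values are a description as well. Ier3 and Ier2 were called higher, a less negative response in 4T1R2, where 1.21% of all genes were higher, and 0 genes were lower, where 0.918% were. The log2 difference of Ier3 was 0.63 (SE 0.060), and it ran from 0.58 to 0.69 with each library left out. That of Ier2 was 0.27 (SE 0.071), and its call was lost without any of 7 single libraries, with values of 0.20 to 0.27. These were replicates 2 and 3 of untreated and 1 of treated 4T1R1, and replicates 1 and 2 of untreated and 1 and 3 of treated 4T1R2. Klf2 differed by 0.82 (SE 0.23) and was not called, but it passed at 0.82 to 0.93 without any of 6 single libraries: either treated 4T1 library, untreated 4T1R1 replicate 3, untreated 4T1R2 replicate 2, or treated 4T1R2 replicate 1 or 2. For Egr1 the difference was 0.055 (SE 0.15; 95% interval −0.24 to 0.35), and for Klf10 it was −0.012 (SE 0.066; 95% interval −0.14 to 0.12).

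Untreated resistant cells were compared with untreated 4T1 to describe the level before drug. These comparisons share the untreated 4T1 libraries with each other and with the response in 4T1. The 4T1R1 comparison also shares its untreated libraries with the response in 4T1R1. Both responses were known when the genes were chosen, so the counts and p-values below are not independent of the choice. In 4T1R1, 3 genes were lower and 6 higher, where 27.5% of all genes were lower and 25.2% higher, so that the share of lower members was near the background. In 4T1R2, 3 were again lower and 6 higher, where 26.9% of all genes were lower and 25.6% higher. Egr1, Egr3 and Klf2 were the lower genes in each population.

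Klf2 was lower by the most, with log2 differences of −0.94 (SE 0.14, adjusted p = 1.89e-07) in 4T1R1 and −1.43 (SE 0.14, adjusted p = 3.55e-11) in 4T1R2. Egr1 differed by −0.58 (SE 0.099, adjusted p = 4.47e-06) and −0.96 (SE 0.10, adjusted p = 2.17e-10). Egr3 differed by −0.63 (SE 0.13, adjusted p = 9.54e-05) and −0.42 (SE 0.13, adjusted p = 0.00752). All untreated libraries of both populations lay below all untreated 4T1 libraries for these 3 genes. The share of all genes separated in this way was not counted.

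Among the higher genes, Klf10 rose 2.05-fold in 4T1R1 (log2 1.04, SE 0.0495, adjusted p = 4.53e-21) and 1.92-fold in 4T1R2 (log2 0.94, SE 0.0502, adjusted p = 1.96e-19). Klf4 rose 2.08-fold in 4T1R1 (log2 1.06, SE 0.086, adjusted p = 7.61e-14) and 1.73-fold in 4T1R2 (log2 0.79, SE 0.088, adjusted p = 4.24e-10). Ier3 rose 1.77-fold in 4T1R1 (log2 0.83, SE 0.043, adjusted p = 7.98e-20) and 2.27-fold in 4T1R2 (log2 1.18, SE 0.043, adjusted p = 5.07e-25). Klf2 and Klf4, whose promoter windows printed above hold the same EGR letters, differed from untreated 4T1 in opposite directions. After 17-DMAG both had a negative log2 fold change in each population, not called for Klf2 in 4T1R2. Whether EGR factors act on either gene was not tested.

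Ier5 rose by a log2 value of 0.62 (SE 0.043, adjusted p = 5.68e-16) in 4T1R1 and 0.45 (SE 0.044, adjusted p = 1.58e-11) in 4T1R2, where its untreated means (2871 and 2537) stood at or above that of treated 4T1 (2532). Klf6 rose by 0.196 (SE 0.032, adjusted p = 1.63e-06) and 0.28 (SE 0.032, adjusted p = 6.84e-10). Egr2 rose in 4T1R1 (log2 1.03, SE 0.19, adjusted p = 1.19e-05) and did not pass in 4T1R2 (0.15, SE 0.20, adjusted p = 0.555), where its value ran from 0.0098 to 0.27 with each library left out. Ier2 did not pass in 4T1R1 (0.074, SE 0.0495, adjusted p = 0.212) and was 0.14 higher in 4T1R2 (SE 0.0498, adjusted p = 0.0183), a call lost at 0.10 without untreated 4T1 replicate 1 and at 0.11 without untreated 4T1R2 replicate 3. Epithelial markers also differed: 7 of 8 were lower and 0 higher in untreated 4T1R1, where 27.5% of all genes were lower. In untreated 4T1R2, 6 of 8 were lower, where 26.9% of all genes were lower. Cdh1 was higher there, at 0.27 on the log2 scale. Cldn4 was the lowest marker in both populations, at −2.21 and −1.73. The part of these markers in the levels above was not tested.

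**Figure D3:**
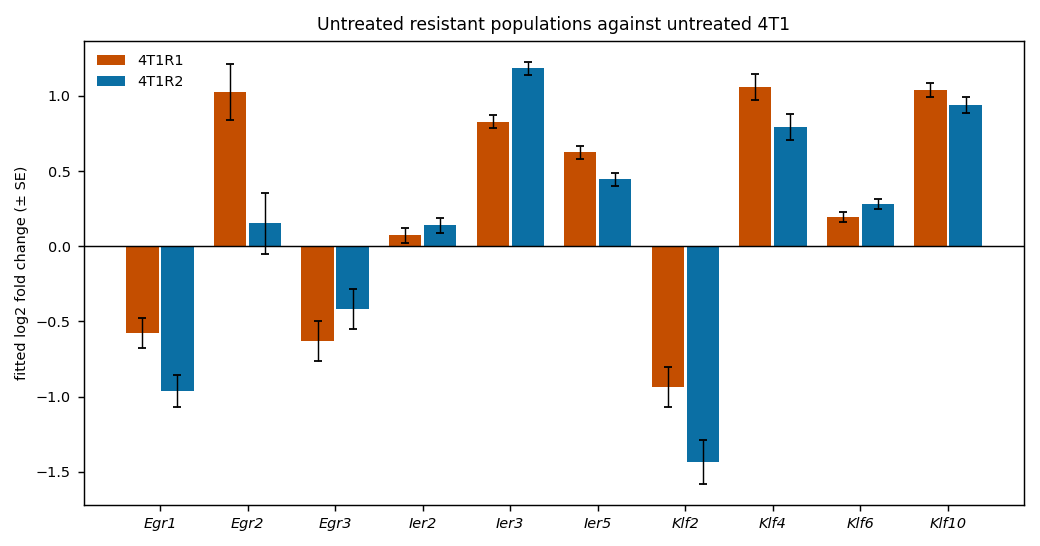
Fitted log2 difference of each gene between untreated 4T1R1 or 4T1R2 and untreated 4T1 (n = 3 in each group); error bars are 1 SE. Egr1, Egr3 and Klf2 lie below 0 in both populations, whereas Ier3, Ier5, Klf4, Klf6 and Klf10 lie above it in both.

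The 2 untreated resistant populations differed from each other in 7 of the 10 genes. The untreated 4T1R1 libraries are also part of the response in 4T1R1, which was known when the genes were chosen. The counts and p-values below are therefore not independent of the choice. Lower in 4T1R2 than in 4T1R1 were 5 genes, against 19% of all genes. Higher were 2, against 19.7%, so that the share of higher members was near the background. Egr2 was lower by a log2 difference of −0.87 (SE 0.19, adjusted p = 0.000217), Egr1 by −0.39 (SE 0.11, adjusted p = 0.00369) and Ier5 by −0.18 (SE 0.042, adjusted p = 0.000658). Klf2 (−0.498, SE 0.15, adjusted p = 0.00813) and Klf4 (−0.27, SE 0.081, adjusted p = 0.00762) were also lower. Both lost the call without untreated 4T1R2 replicate 1, at −0.42 and −0.21, which left 3 lower genes, and Klf2 lost it at −0.42 without untreated 4T1R1 replicate 1 as well. Ier3 was higher in 4T1R2 by 0.36 (SE 0.042, adjusted p = 3.68e-09), and Klf6 by 0.086 (SE 0.032, adjusted p = 0.0283). The call for Klf6 was lost without replicate 1 or 2 of untreated 4T1R1 or replicate 2 or 3 of untreated 4T1R2, with values of 0.069 to 0.080, which left 1 higher gene. Egr3 (0.21, SE 0.14, adjusted p = 0.231), Ier2 (0.064, SE 0.0495, adjusted p = 0.331) and Klf10 (−0.0998, SE 0.047, adjusted p = 0.0920) did not pass, although Klf10 did at −0.12 (adjusted p = 0.0460) without untreated 4T1R1 replicate 2.

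Other genes of these families and of the immediate-early program were counted from lists that were not picked for how they moved, although earlier results of these data were known. Of 17 further EGR, IER and KLF genes and the EGR corepressors Nab1 and Nab2, 12 could be tested. After 17-DMAG, 7 were lower and 1 higher in 4T1, 5 lower and 0 higher in 4T1R1, and 3 lower and 0 higher in 4T1R2, where 17.9%, 14.3% and 4.35% of all genes were lower and 18.4%, 13.9% and 6.18% higher. Nab2, itself induced by EGR factors, had log2 fold changes of −0.45 in 4T1, −0.074 in 4T1R1 and 0.0091 in 4T1R2. Klf11, related to Klf10, had values of −0.65, −0.64 and −0.38, and Klf7 had values of −0.70, −0.33 and −0.085. The medians of this list were −0.17, −0.14 and −0.080 in the 3 populations. Among untreated cells compared with 4T1, Klf9 had the highest value of the list, at 0.78 in 4T1R1 and 1.12 in 4T1R2, and Klf13 the lowest, at −0.29 and −0.43.

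Of 30 other immediate-early genes, 14 were lower and 9 higher in 4T1 after 17-DMAG, 14 lower and 5 higher in 4T1R1, and 11 lower and 3 higher in 4T1R2, to be read against the same shares of all genes. Fos, the AP-1 subunit that serves as the reference gene of this class, had a log2 fold change of −4.29 (SE 0.24) in 4T1, −0.23 (SE 0.15) in 4T1R1 and −0.86 (SE 0.12, adjusted p = 3.19e-06) in 4T1R2. At the other end, the nuclear receptor gene Nr4a2 stood at 1.67 in 4T1, so that the list did not move as a whole, and its medians were −0.13, −0.19 and −0.066. Among called genes with a group mean of 100 normalized counts or more, the antiproliferative gene Btg2 was lowest in 4T1R1 at −0.82 and Gadd45b highest at 0.62. Untreated, 9 of the 30 were lower and 14 higher in 4T1R1, against 27.5% and 25.2% of all genes, so that the lower share was near the background. In 4T1R2, 3 were lower and 17 higher, against 26.9% and 25.6%. By the same minimum level, the SRF and YAP target Ctgf was the lowest called gene, at −1.37 and −1.06, and Atf3 at 1.20 in 4T1R1 and Id1 at 1.36 in 4T1R2 were the highest. Fos differed in direction between the untreated populations, at −0.99 in 4T1R1 and 0.84 in 4T1R2.

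The 21 upstream regulators, which include Srf, the ternary complex factors, the MRTF and MEF2 genes and the kinases of the ERK and ERK5 routes, had changes in both directions. After 17-DMAG, 6 were lower and 5 higher in 4T1, against 17.9% and 18.4% of all genes, and 9 lower and 2 higher in 4T1R1, against 14.3% and 13.9%, with medians of −0.014 and −0.13, and the median in 4T1R2 was −0.038. Among called genes above the same minimum level, Elk3 was lowest in 4T1 at −0.47 and Braf highest at 0.27. Srf stood at 0.23 in 4T1, and Mapk7, which encodes ERK5, at −0.33. Egfr and Mef2c were near the floor, with group means of 6.75 to 13.8 and 3.33 to 11.1 normalized counts. In untreated cells Creb1 was the lowest called regulator at that level, at −0.28 in 4T1R1 and −0.39 in 4T1R2, while Mapk7 at 0.43 in 4T1R1 and the ERK-activated kinase gene Rps6ka1 at 0.33 in 4T1R2 were the highest.

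**Figure D4:**
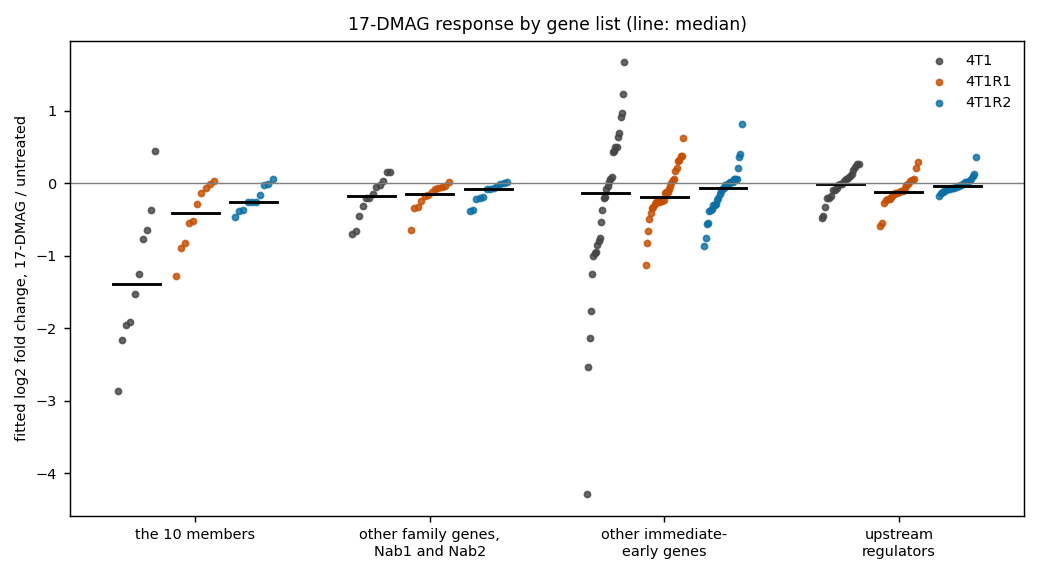
Fitted log2 fold change after 17-DMAG of each tested gene (points) in the 10 genes described here, the other family genes with Nab1 and Nab2 (12), other immediate-early genes (30) and upstream regulators (21), by population; horizontal lines are medians. The medians in 4T1 are −1.39, −0.17, −0.13 and −0.014, and the lowest point is Fos at −4.29.

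The 10 genes were not alike in pattern over the 17 libraries. Among them, the closest pair was Ier3 and Klf6, with a Pearson r of 0.935 between their log2 normalized counts, and Klf4 and Klf10 had 0.908. The lowest values were −0.716 for Ier5 and Klf2 and −0.557 for Ier5 and Egr3. These values describe 17 libraries that fall into 6 groups, so libraries of a group share their level and no test was made. Among 10330 genes whose mean reached 100 normalized counts, the gene closest to Egr1 was Msh6 (r = 0.952), that closest to Egr3 was Rrm2 (r = 0.981) and that closest to Klf2 was Srebf1 (r = 0.959). Ier2 was closest to Msl1 (r = 0.986), Ier3 to Plcb3 (r = 0.985), Klf6 to Tiparp (r = 0.982) and Klf10 to Ptpn22 (r = 0.984). Ier5 was closest to Gadd45a (r = 0.966), Egr2 to Cx3cl1 (r = 0.961) and Klf4 to Gdnf (r = 0.965).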

How the data were processed

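The deposited table held raw counts per gene, which the authors made by aligning ribosome-depleted, stranded RNA-seq reads to mm10 (GRCm38) with STAR and counting with featureCounts (Subread 1.6.2, per the submitters' processing notes); strand and multi-mapping settings are not given in the sources used here. The members and lists were chosen with earlier results of these data known. Counts were tested with edgeR 4.0.16 in R 4.3.3 (filterByExpr, TMM scaling, quasi-likelihood test over 6 groups, Benjamini-Hochberg adjustment over 13507 genes, threshold 0.05), and the code was tested on simulated data. SE values are the absolute log2 fold change over the square root of F. Replicates 1 and 2 of 17-DMAG-treated 4T1 were averaged, leaving 17 libraries. The labels call replicates biological; p-values measure the spread between these libraries. Replicate numbers did not pair the samples (correlations of deviations −0.022 to 0.037). All members were named, with Fos as reference. Overlap of libraries between groups was examined for the members only, so no share over all genes stands beside it. From each list, the called genes with the lowest and highest change were named if the mean of any of the 6 groups reached 100 normalized counts. Srf, Nab2, and further values of Klf7, Klf11 and Mapk7 were chosen after their values were seen. Alternatives were other scalings and filters, DESeq2 1.42.0, fits of the compared groups alone, 18 separate libraries, a replicate block, a 2-fold minimum and each library left out. Figures used matplotlib 3.10.9 in Python 3.11.15. Some withheld results are not reported here.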

Additional observations from a re-analysis of the deposited data

Results flagged for a closer look

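The 17-DMAG response differed between 4T1 and 4T1R1 in 9 of the 10 genes by the test of the difference itself (edgeR's quasi-likelihood test, adjusted over all genes), where 9.16% of all genes were higher and 9.08% lower. Klf2 and Egr2 lose this call without the averaged treated 4T1 library, and Egr2 also without treated 4T1 replicate 3 or untreated 4T1R1 replicate 2. The log2 differences, 4T1R1 minus 4T1, were 2.80 for Egr1, 1.13 for Egr2, 1.36 for Egr3, 0.72 for Ier2, 0.63 for Ier3, 0.88 for Klf2, 0.51 for Klf6 and 0.76 for Klf10, and Ier5 differed the other way, by −0.40. Between 4T1 and 4T1R2 the same 9 genes differed, where 9.62% of all genes were higher and 8.16% lower. The log2 differences, 4T1R2 minus 4T1, were 2.85 for Egr1, 1.58 for Egr2, 1.65 for Egr3, 0.99 for Ier2, 1.27 for Ier3, 1.70 for Klf2, 0.48 for Klf6, 0.74 for Klf10 and −0.38 for Ier5. Both sets use the response in 4T1, which was known when the genes were chosen, and share its libraries.

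Between the resistant populations, the log2 response of Ier3 was 0.63 higher in 4T1R2 than in 4T1R1, and that of Ier2 was 0.27 higher, where 1.21% of all genes were higher. The response in 4T1R1 was known when the genes were chosen, so these values are a description. The call for Ier2 was lost without any of 7 single libraries and with total-count scaling. Treated libraries were below untreated libraries for both genes in both populations.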

How the results depend on the processing

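Direction and call held for every gene with RLE scaling, DESeq2, the compared groups alone, 10 counts in every library or 18 separate libraries. With the replicate block no call changed, and Egr1 in 4T1 was −2.89; the replicate numbers did not pair the samples. Total-count scaling shifted the median of all genes in 4T1 by −0.11, with 1193 genes higher and 4322 lower against 2490 and 2423, and in 4T1R1 minus 4T1 by 0.15. Under it, uncalled genes changed sign: Klf10 in 4T1R1 to 0.023, Klf4 in 4T1R2 minus 4T1 to 0.061, and in 4T1R2 minus 4T1R1 Egr1 to −0.026 and Ier5 to −0.057. Ier5 in 4T1R1 minus 4T1 moved to −0.25, Klf2 in 4T1R2 passed at −0.51, and Klf6 between the untreated resistant populations lost its call, leaving 1 higher gene there (1 also with no filter) and 1 in 4T1R2 minus 4T1R1, where Ier2 lost its call at 0.19. Klf2 passed in that difference with no filter and without Rn45s.

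With a 2-fold minimum, 0 genes were higher in 4T1, 1 was lower in 4T1R1 and 0 were lower in 4T1R2. Of the genes lower in 4T1, Klf4 (−0.37), Klf6 (−0.64) and Klf10 (−0.77) fell short of this minimum. Shares over all genes were not counted for this minimum or with libraries left out. Untreated, 0 were lower and 3 higher in 4T1R1, 1 lower and 1 higher in 4T1R2, and 0 lower and 0 higher between them. For the response differences, 0 were lower and 3 higher in 4T1R1 minus 4T1, 0 lower and 5 higher in 4T1R2 minus 4T1, and 0 higher in 4T1R2 minus 4T1R1.

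With each library left out, counts ran from 3 to 6 lower and 1 to 2 higher between the untreated resistant populations, and from 1 to 3 higher in 4T1R2 minus 4T1R1. Uncalled values changed sign: Egr1 in 4T1R1 (−0.18 to 0.013) and 4T1R2 (−0.046 to 0.044), Klf10 in 4T1R1 (−0.059 to 0.025) and 4T1R2 (−0.067 to 0.0023), Klf4 in 4T1R1 minus 4T1 (−0.069 to 0.16, and 0.26 without the averaged library) and 4T1R2 minus 4T1 (−0.15 to 0.079, and 0.18 without the averaged library), and in 4T1R2 minus 4T1R1 Egr1 (−0.028 to 0.17), Ier5 (−0.0030 to 0.051) and Klf10 (−0.057 to 0.035). The cause was not tested. With 2 or 3 libraries a group and low counts, the values of Egr2 and Klf2 are the least precise.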
